A study of Mus musculus with 20 samples.

Results

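Of the 335858 regions obtained when the ATAC-seq peaks of all 20 libraries were merged wherever they overlapped by 1 bp or more, 17866 carried a peak in the NanogN70+Oct4 Day3 library and in none of the other 19. They made up 23.3% of the 76678 regions open in that library. ATAC-seq reads accessible chromatin through the Tn5 transposase, which cuts and tags DNA that is not wrapped around nucleosomes. The regions were chosen by the presence and absence of peaks, and they were divided by the pileup at the summit, which is the number of tags stacked there. A strong region had a pileup of 12 or more and a weak region a pileup under 12, and there were 9138 and 8728 of them. Pileup and absence elsewhere are therefore properties of the choice and are described without a test.

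The time course libraries came from mouse embryonic fibroblasts (MEFs) that were transduced with pMXs retroviruses, carry an Oct4-GFP reporter and were made from embryos of OG2 males and females of the 129 strain. All time course cells received Oct4 and, as the other factor, either Nanog or NanogN70. NanogN70 (NanogBiD in the study) has the N-terminal stretch of SS18 that binds BRG1 joined to the N-terminus of Nanog. SS18 and BRG1 belong to BAF, a complex that moves nucleosomes. They were sampled on day 0 (the end of the infection), day 1 and day 3, then on days 5, 7 and 8, and last on days 10 and 12, and were grown in the iCD3 reprogramming medium and later in 2iL medium. There was 1 library for each day and factor pair and 1 of MEFs that received no factor, and the 3 ESC libraries, named by their titles, carry MEF in their source field. Each library is a bulk preparation of unselected cells as far as the labels tell, so how many cells were open at a site and how open the site was in each cell cannot be told apart. The NanogN70+Oct4 Day3 condition has no replicate, sequencing depth is unknown, and no difference between conditions was tested.

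Accessible sites away from promoters are often enhancers, and which of them are open is among the most cell type-specific features of chromatin. In lymphocytes, such sites are often bound by ETS factors (ETS1, FLI1, GABPA), which read a GGAA core, and by RUNX factors (RUNX1, RUNX3), which read TGTGGT or TGCGGT and act with ETS factors at T cell genes. In fibroblasts the open distal sites are typically bound by AP-1 and TEAD factors instead. T lymphocytes are further defined by the CD3 chains of the T cell receptor complex, by the kinases LCK and ZAP70 that relay its signal, and by factors such as TCF1 (encoded by Tcf7) and BCL11B.

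The sequences at the summits of the strongest regions at T lymphocyte and general leukocyte genes show what was open. Each is the summit base with 50 bp on either side on the + strand of mm10, printed 5′ to 3′, and capitals mark the words CCGGAA and AGGAAG (ETS) and TGTGGT and TGCGGT (RUNX) on either strand, so that CTTCCT is AGGAAG read from the other strand. Windows that touched an annotated UTR were passed over. The Tcf7 region (chr11:52265636-52265736, intron) lies inside the gene of TCF1, a factor of early T cell development. The Rac2 region (chr15:78564070-78564170, intron) lies in the gene of a small GTPase of blood cells. The Coro1a region (chr7:126702513-126702613) lies at the gene of an actin regulator of leukocytes, and the Zap70 region (chr1:36761683-36761783) just before the start of its gene. The Cd52 region (chr4:134098751-134098851) lies upstream of the gene of a lymphocyte surface glycoprotein. The Bcl11b region (chr12:107993165-107993265, intron) lies in the gene of a T cell commitment factor. The Cd4 (chr6:124885280-124885380, intron) and Cd2 (chr3:101274971-101275071) regions belong to genes of T cell surface receptors. The Lcp2 region (chr11:34102032-34102132), at the gene of the adaptor SLP-76, is the highest of the weak regions near these genes.
Tcf7: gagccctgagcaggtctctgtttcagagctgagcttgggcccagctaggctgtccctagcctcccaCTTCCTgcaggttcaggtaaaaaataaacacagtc
Rac2: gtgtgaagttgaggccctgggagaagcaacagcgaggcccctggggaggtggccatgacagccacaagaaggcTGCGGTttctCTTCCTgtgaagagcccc
Coro1a: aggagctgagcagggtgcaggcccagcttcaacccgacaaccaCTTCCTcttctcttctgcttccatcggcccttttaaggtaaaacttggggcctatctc
Zap70: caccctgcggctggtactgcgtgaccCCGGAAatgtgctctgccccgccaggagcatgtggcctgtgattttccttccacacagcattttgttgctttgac
Cd52: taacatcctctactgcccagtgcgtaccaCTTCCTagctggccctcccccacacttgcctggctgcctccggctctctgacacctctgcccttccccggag
Bcl11b: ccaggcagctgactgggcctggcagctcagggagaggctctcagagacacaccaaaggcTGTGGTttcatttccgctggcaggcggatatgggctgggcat
Cd4: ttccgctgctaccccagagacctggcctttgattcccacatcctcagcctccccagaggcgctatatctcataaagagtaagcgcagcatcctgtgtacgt
Cd2: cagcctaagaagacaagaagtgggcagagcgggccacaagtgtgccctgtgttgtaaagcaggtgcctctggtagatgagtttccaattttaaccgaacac
Lcp2: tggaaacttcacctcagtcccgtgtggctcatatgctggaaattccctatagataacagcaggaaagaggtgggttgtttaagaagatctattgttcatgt

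The pileups at these summits in the NanogN70+Oct4 Day3 library were 104 at Tcf7, 87 at Rac2, 82 at Coro1a, 81 at Zap70, 74 at Cd52, 72 at Bcl11b, 67 at Cd4, 65 at Cd2 and 11 at the weak Lcp2 region. By the rule, none of the other 19 libraries had a peak there. Within 1 kb of some start site of the gene, however, a peak was called in 20 libraries at Coro1a and in 11 at Zap70, NanogN70+Oct4 Day3 among them. The Rac2 window held 1 RUNX and 1 ETS word, 4 other windows (Tcf7, Coro1a, Zap70, Cd52) held 1 ETS word, the Bcl11b window held 1 RUNX word, and the Cd4, Cd2 and Lcp2 windows held none of these words. These windows reach 50 bp on either side of the summit, and the share of all regions with such words at that reach was not computed. The word counts of these windows therefore have no base to be read against. Neither Rac2 word lay wholly within 25 bp of the summit, so they are not counted in the word shares given below. A word is a description of the letters and not evidence of binding.

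In tags, which are not scaled to depth, the regions found only in this library reached higher pileups than those found only in any other. Of the 17866 regions, 51.1% had a pileup of 12 or more (95% exact interval 50.4 to 51.9%, counting error only). The corresponding share of lone regions was 15.9% in MEFs (5266 of 33128), 2.56 to 4.78% in the 3 ESC libraries and 0.0845 to 7.06% in the other 15 time course libraries. The median pileup of lone regions was 12 in the NanogN70+Oct4 Day3 library and 5 to 7 in the other 19, and the highest was 128 against 12 to 66. Neighbouring libraries held few lone regions past 12 unscaled tags, with 48 in NanogN70+Oct4 Day1, 20 in NanogN70+Oct4 Day5 and 8 in Nanog+Oct4 Day3.

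**Figure D1:**
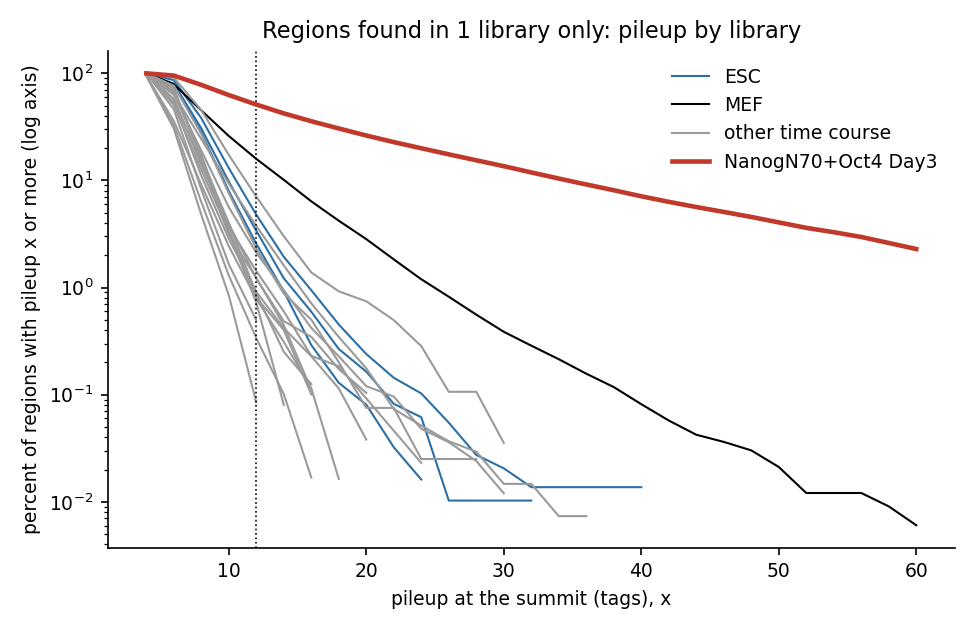
Percent of the regions found in 1 library only (y axis, log scale) whose summit pileup reached the number of tags on the x axis, with 1 line per library and a dotted line at 12 tags. At 12 tags the NanogN70+Oct4 Day3 line stands at 51.1%, the MEF line at 15.9% and all other lines at 7.06% or less.

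The libraries differed in how high their peaks were in general. At the 14217 regions that every one of the 20 libraries had called, the median pileup was 60 in the NanogN70+Oct4 Day3 library and 16 to 41 in the others. Set against this level of its own library, a pileup of at least 0.5 times the shared median was reached by 13.6% of the lone NanogN70+Oct4 Day3 regions (2428), and by 0.125 to 11.1% in the others, where the most such regions in 1 library were 938 in MEFs. Of the neighbouring libraries, NanogN70+Oct4 Day1 had 558 such regions (9.13%), NanogN70+Oct4 Day5 20 and Nanog+Oct4 Day3 8. A pileup at or above the shared median was reached by 2.29% of the lone NanogN70+Oct4 Day3 regions (409) and in the others by 0 to 0.228% (at most 31 regions, in MEFs). At 0.2 times the shared median, which is 12 tags in this library, the NanogN70+Oct4 Day3 share lay inside the range of the others (14.1 to 100%), whose lone regions mostly lay near the lowest pileup a peak could have. How far the share past 12 tags depends on the level of the library was not tested. Libraries of like level differed in it, with 1.43% in Nanog+Oct4 Day7 (shared median 38) and 15.9% in MEFs (39). The number of lone regions at or above the shared median was largest in NanogN70+Oct4 Day3 among the 20 libraries.

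To ask whether the other libraries could have shown these regions, each pileup was scaled by the ratio of the shared medians. This value rescales the pileup the regions were divided by and is a description. After scaling, all 9138 strong regions reached the lowest pileup of a peak in each of 18 other libraries, and in Nanog+Oct4 Day0, the library that set the limit, 6933 (75.9%) did, which are those with a pileup of 15 or more. The 5th percentile of peak pileups was reached by 5062 strong regions (55.4%) in all 19. None of the 8728 weak regions reached the 5th percentile in all 19 libraries, but single libraries differed. In MEFs, Nanog+Oct4 Day7 and NanogN70+Oct4 Day7, 4802 weak regions reached it, in NanogN70+Oct4 Day12 3344, and in 8 libraries, NanogN70+Oct4 Day1 and Nanog+Oct4 Day3 among them, none did. The 5062 regions had pileups of 19 or more, and 13.2% of them lay at a promoter and 33.8% held an ETS or RUNX word.

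Regions open in NanogN70+Oct4 Day3 and in exactly 1 other library numbered 3538. Of these, 949 were shared with MEFs, 406 with ESC replicate 2, 379 with NanogN70+Oct4 Day5 and 298 with ESC replicate 1. NanogN70+Oct4 Day0 shared 215, Nanog+Oct4 Day5 205 and NanogN70+Oct4 Day1 194, and these numbers are not scaled to library size. The median pileup of the 3538 regions was 10 in NanogN70+Oct4 Day3 and 7 in the other library. These regions are not among the 17866, although 1591 of them had a NanogN70+Oct4 Day3 pileup of 12 or more.

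Most strong regions were distal. Of the 9138, 46.3% lay in introns, 38.6% between genes, 3.67% in exons and 11.5% (1049 regions, 95% exact interval 10.8 to 12.2%) within 1 kb of a protein-coding start site. Weak regions were at promoters in 7.16% (6.63 to 7.73%). Among the 58786 other regions of the library that lie on the chromosomes compared, 26.9% were at promoters, and among those with a pileup of 12 or more 41.7% (41.1 to 42.2%). The strong regions had a median peak width of 404 bp, a median GC content of 49.8% within 100 bp of the summit and a median of 3 CpG dinucleotides. The median distance to the nearest protein-coding start site was 11.8 kb.

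Place, sequence and neighbouring genes changed with the pileup in steps and not only at 12. The share at promoters rose from 5.74% of the regions with pileups of 4 to 7 to 18.6% of those with 60 or more, while in the other regions of the library it rose from 7.70% to 83.1%. The share with an ETS or RUNX word rose from 23.1% to 39.9%, against 12.4% to 20.01% in the other regions. The share within 10 kb of a T lymphocyte or general leukocyte gene rose from 0.459% (18 of 3923) to 5.38% (22 of 409), and in the other regions it stayed between 0.118% and 0.662%. For the 956 regions of pileup 11 and the 862 of pileup 12, on either side of the threshold, the promoter shares were 9.52% and 8.70%, the word shares 25.7% and 25.9%, and the shares near a T lymphocyte or general leukocyte gene 1.88% (18 regions) and 1.28% (11 regions).

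**Figure D2:**
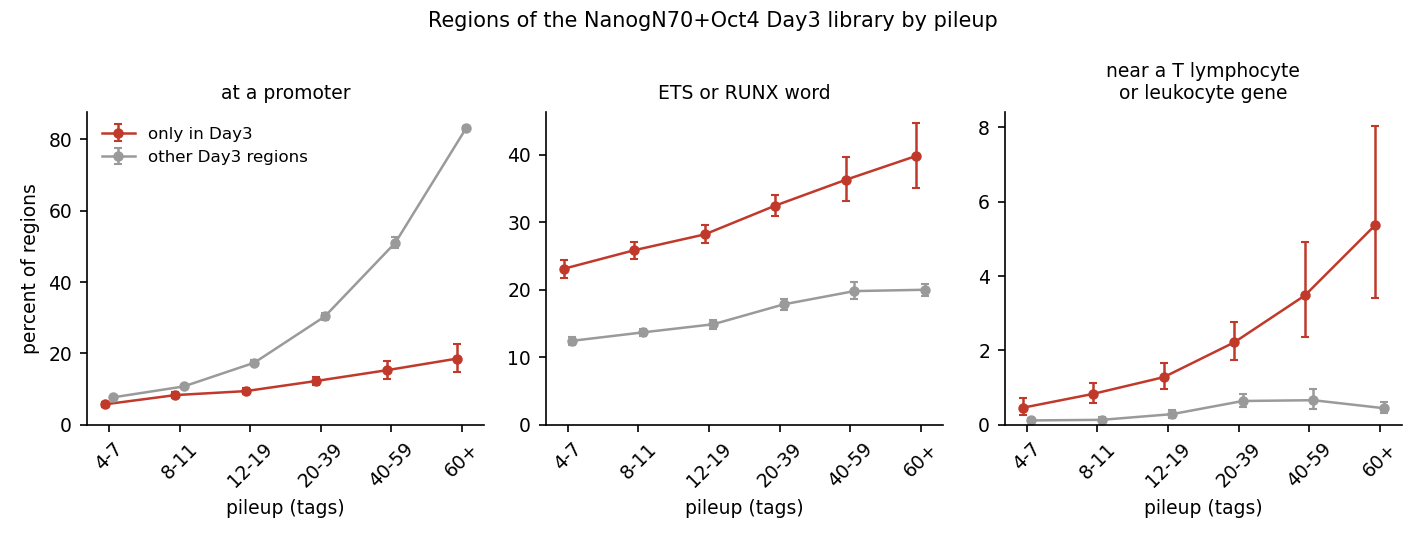
Percent of regions (y axes) at a promoter, with an ETS or RUNX word within 25 bp of the summit, and within 10 kb of a T lymphocyte or general leukocyte gene, by summit pileup in tags (x axes), for regions found only in NanogN70+Oct4 Day3 (red) and the other regions of that library (grey); bars are 95% exact intervals. In the highest step the red points stand at 18.6%, 39.9% and 5.38% and the grey points at 83.1%, 20.01% and 0.447%.

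In the strong and in the weak regions, the words of ETS and RUNX factors were the most frequent of the 17 families searched on both strands in the 51 bp around the summit. The families differ in the number and length of their words, so their ranks are not like for like, and ETS words also ranked first over all regions. ETS words were found in 22.0% of strong regions (95% exact interval 21.2 to 22.9%), 16.1% of weak regions, 10.2% of the other regions of the library and 8.16% of all 335775 regions on the chromosomes compared. RUNX words were found in 11.1% of strong, 9.81% of weak and 5.92% of other regions of the library, and in 6.26% of all regions. Away from promoters, 30.9% of strong regions held an ETS or a RUNX word, against 17.7% of the other regions of the library with a pileup of 12 or more and 13.8% of all regions. Both were present in 2.05% of strong regions (187) and in 0.433% of all regions. The median pileup was 21 in strong regions with both words, 21 with ETS words alone, 22 with RUNX words alone and 19 with neither.

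Words of other factors that act in blood cells were above the share of all regions in some families and below it in others. E-box words (CAGCTG or CAGGTG), read by the E proteins that act in lymphocytes, were found in 10.0% of strong and 7.92% of all regions, but away from promoters the share was 9.95% in strong regions and 9.78% in the other regions of the library with a pileup of 12 or more. TCF/LEF words (CTTTGA), read by TCF1 and LEF1, were found in 4.40% and 3.18%, and IRF words (GAAANNGAA) in 2.63% and 1.03%. NF-kB words (GGACTTTCC) were rare, with 36 strong regions (0.394%) and 0.0593% of all regions. NFAT words (GGAAAA) were found in 2.33% of strong and 2.998% of all regions, CEBP words (TTGCNNAA) in 1.34% and 1.98%, and ROR words (TAGGTCA) in 0.339% and 0.419%.

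The words of AP-1 and TEAD factors and the octamer were less frequent than over all regions. The AP-1 word (TGANTCA) was found in 2.95% of strong regions, 3.14% of weak regions, 3.82% of the other regions of the library, 6.12% of all regions and 13.4% of regions found only in MEFs. The TEAD word (GGAATG) was found in 0.788% of strong regions, 1.36% of weak regions, 2.16% of the other regions of the library, 4.48% of all regions and 8.84% of regions found only in MEFs. The octamer ATGCAAAT, read by Oct4 and by other POU factors, was found in 16 strong regions (0.175%), in 0.178% of regions found only in MEFs and in 0.664% of all regions, and the SOX word (CATTGT) in 1.88% and 3.03%. Away from promoters the SOX share was 1.93% in strong regions and 1.99% in the other regions of the library with a pileup of 12 or more. KLF words were found in 1.51% of strong and 1.46% of all regions. Some words share letters, since the ETS, TEAD, NFAT and IRF words all hold GAA, and 1 site can count for several families.

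**Figure D3:**
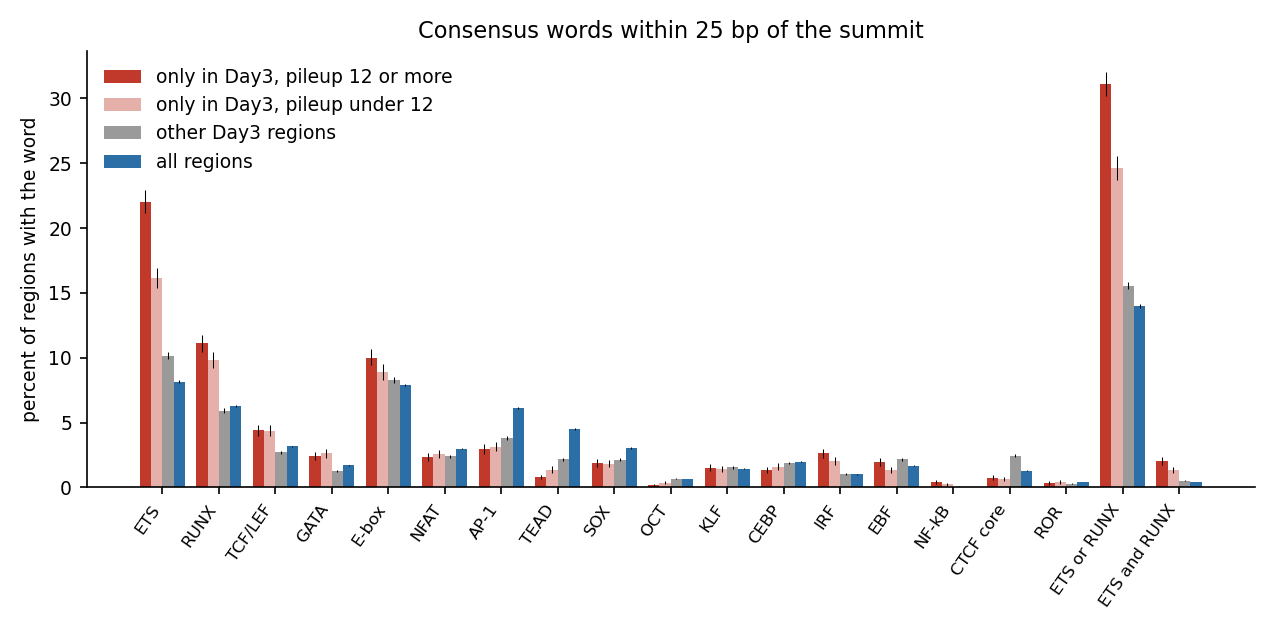
Percent of regions (y axis) with a consensus word of each factor family (x axis) within 25 bp of the summit, for the strong and weak regions found only in NanogN70+Oct4 Day3, the other regions of that library and all regions of the series; bars are 95% exact intervals that cover counting error only. The strong regions stand at 31.1% for ETS or RUNX words, against 24.6% of weak regions, 15.6% of other regions and 14.0% of all regions.

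T lymphocyte genes were frequent neighbours. A strong region lay in the gene body or within 10 kb of it for 22 of 24 T lymphocyte genes, where 18.4% of all 21938 protein-coding genes had one. Cd8a and Trat1 were the exceptions, and Trat1 had 5 weak regions. The windows held 98 regions, or 102 when a region shared by neighbouring genes is counted for each, which gives 60.8 per Mb of these windows against 5.54 per Mb over all protein-coding genes. The median window was 44.8 kb in the T lymphocyte list and 37.4 kb over all genes. Weak regions lay at 12 of the 24 genes, where 18.8% of all protein-coding genes had one. The lists were written with earlier results of these data known, and their counts are descriptions.

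Several genes of the T cell receptor complex and of the T cell surface held such regions. A region between Cd3d and Cd3g, which encode the CD3 delta and gamma chains, had a pileup of 76 and lay 14 bp upstream of a Cd3g start site and 1341 bp from that of Cd3d. Cd3e had 3 strong regions (highest pileup 23) and Cd247, the zeta chain gene, 6 (highest 34). Cd28, the costimulatory receptor gene, had 5, with a pileup of 61 at 17 bp upstream of its start site, and Ctla4, the gene of its inhibitory counterpart, had 9 (highest 55). Cd2 and Cd6 had 8 each (highest 65 and 55), and Cd5 had 6 (highest 74, 19 bp upstream of its start site). Il7r, the gene of the interleukin 7 receptor that naive T cells need, had 3 (highest 27).

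All 26 genes of the T cell receptor signalling list had a strong region, beside 18.4% of all protein-coding genes. Their windows were longer, with a median of 70.7 kb against 37.4 kb, and held 62.5 strong regions per Mb. The proximal kinases Lck and Zap70 had 4 and 2 strong regions with highest pileups of 79 and 81, close to their start sites (45 and 65 bp upstream). A peak within 1 kb of a start site was called at Lck in 20 libraries and at Zap70 in 11, NanogN70+Oct4 Day3 among them. The adaptor genes Lat, Lcp2 and Grap2 had 3, 4 and 16 (highest 28, 40 and 36). Fyn, which encodes another proximal kinase, had 15 (highest 41). Downstream of the adaptors, Prkcq (protein kinase C theta) had 13 (highest 70) and Nfatc2 11 (highest 85). Part of this list, Lck, Zap70, Lat and Cd28 among it, is also in the T lymphocyte list, and many of its genes are used outside T cells, since 18 of the 26 had a promoter peak in MEFs.

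Of the 26 lymphocyte transcription factor genes, 23 had a strong region, with 152 in all and 42.2 per Mb, in windows with a median of 103 kb. Bach2, a repressor that keeps T cells quiescent, had 25 (highest pileup 86), Foxp1 19 (highest 47), Ikzf1 (Ikaros) and Runx1 14 each (highest 49 and 69), Ets1 12 (highest 84), Bcl11b 10 (highest 72) and Lef1 8 (highest 40). Id3, Tcf12 and Myb had none. The promoters of all 26 were open in NanogN70+Oct4 Day3 and those of 19 to 26 in the other libraries, and 12 of the 152 strong regions lay at a promoter. Strong regions also lay at 16 of 18 homing and cytokine receptor genes, among them Ccr7 (5, highest 66), which guides naive T cells to lymph nodes, Il21r (6, highest 59) and Il6ra (9, highest 52).

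General leukocyte genes had a strong region in 18 of 20 cases, with 87 regions and 50.1 per Mb, and Arhgdib and Cd37 were the exceptions. Ptprc, which encodes CD45, had 6 (highest 35), Fyb 12 (highest 53) and the integrin gene Itgb2 5 (highest 85, 21 bp downstream of its start site). Activated or effector T cell genes had one in 14 of 18 cases and the highest density of the 21 lists, 81.8 per Mb. Tnfrsf4 (OX40) had 4 (highest 92), Tnfrsf9 (4-1BB) 8 (highest 65), Il2ra 7 (highest 29) and Foxp3 6 (highest 35), while Il2, Il21, Il17a and Gzmb had none.

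In lists of other cell types, from none of the genes to 3 of 10 had a strong region, on both sides of the 18.4% over all protein-coding genes. Strong regions were found at 3 of 17 B lymphocyte genes (Cd79b, Blk and Vpreb3, highest pileup 22, 2.81 per Mb), 3 of 10 NK cell genes (Il2rb, Nkg7 and Klrg1, highest pileup 119, 31.3 per Mb), 5 of 18 myeloid genes (14.8 per Mb), 2 of 12 blood progenitor genes and 2 of 11 erythroid genes. Of the 14 strong regions at myeloid genes, 10 lay in the window of Cx3cr1, a chemokine receptor gene that effector T and NK cells also use. That window spans 188 kb, against a median of 30.8 kb in the myeloid list, so the regions need not belong to Cx3cr1. Strong regions lay at 2 of 12 endothelial genes (9.26 per Mb), and of these 10 regions 8 lay at Pecam1, which leukocytes express too. None of the 12 hepatocyte and 16 fibroblast genes had a strong region, and 1 of 12 neuron, 2 of 12 epidermis, 1 of 12 skeletal muscle and 3 of 12 housekeeping genes had one. Of 18 pluripotency genes only Klf2, which quiescent T cells express as well, had 1 (pileup 31). Immature thymocyte genes lay between, with a strong region at 4 of 8 (Ccr9, Dntt and Arpp21 among them) and none at Rag1, Rag2 or Ptcra.

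**Figure D4:**
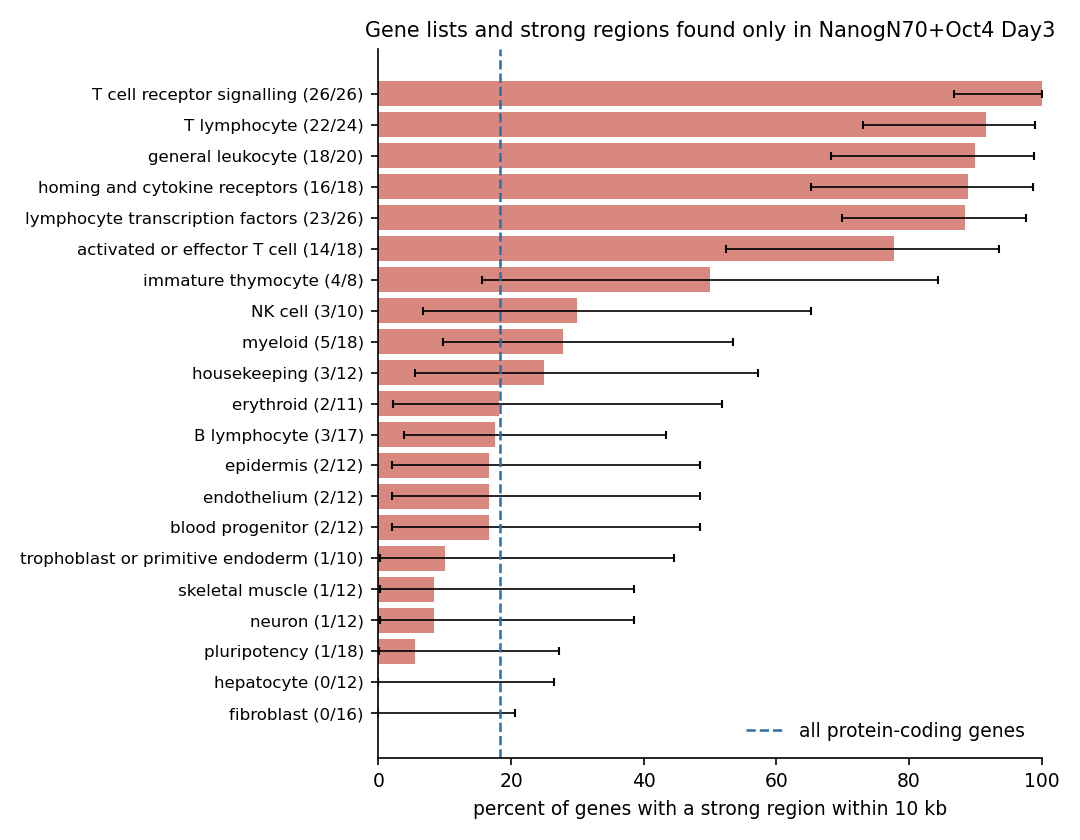
Percent of the genes of each list (x axis, in percent) with a strong region in the gene body or within 10 kb of it, with the numbers of genes beside each list name; bars start at 0, thin lines are 95% exact intervals and the dashed line is the share of all protein-coding genes. The 6 lists of T cell, lymphocyte and leukocyte genes at the top stand between 77.8% and 100%, and the line stands at 18.4%.

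Peaks of any kind in the windows of a list include the regions chosen for their absence elsewhere, so both totals and shared peaks are given. The windows of the 24 T lymphocyte genes held 235 peaks in NanogN70+Oct4 Day3, of which 107 lay in regions that at least 1 other library had open, and without the regions found in 1 library only the other 19 libraries held 57 to 109, with the most in ESC replicate 2 and fewer than 107 in each of the other 15 time course libraries. For general leukocyte windows the numbers were 215, 96 and 40 to 107, and the rest of the time course held 40 to 76. B lymphocyte windows held 60 such shared peaks against 40 to 82 in the others, and fibroblast windows 60 against 26 to 122. Peaks within 1 kb of a start site were found in NanogN70+Oct4 Day3 at 23 of 24 T lymphocyte genes, all but Cd4, where 65.3% of all protein-coding genes had one. They were found at 3 to 5 of these genes in the other time course libraries and at up to 13 in any library. Of the 20 general leukocyte genes, 20 had such a peak in NanogN70+Oct4 Day3 and 4 to 10 in the others. Without the regions found in 1 library only, 13 T lymphocyte genes had one in NanogN70+Oct4 Day3, against 3 to 5 in the rest of the time course and at most 13 in any library, and 11 general leukocyte genes had one against 4 to 9.

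At several promoters NanogN70+Oct4 Day3 was the only library with a peak, which is again the value the regions were chosen by. This held for 7 T lymphocyte genes (Cd28, Cd3g, Cd5, Cd8b1, Ctla4 and Trat1 among them), 5 general leukocyte genes (Cd48, Cd52, Cd53, Lcp2, Sla) and 6 activated or effector T cell genes (Cd40lg, Gzma, Il2, Il21, Il4, Pdcd1), and for 218 (0.994%) of all protein-coding genes. In each of the other 19 libraries no gene of these 3 lists had a promoter peak in that library alone, and between 2 and 138 of all protein-coding genes did.

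The labels name MEFs. Promoter peaks were present at 12 of 16 fibroblast genes in NanogN70+Oct4 Day3, near the 65.3% over all protein-coding genes in that library, at 16 in MEFs and at 8 to 16 over the other 19 libraries. Col1a1, Col1a2, Fn1, Pdgfra and Twist1 were among the 12, and Col3a1, Prrx1, Mmp2 and Lum had none. Peaks on the coding exons of Nanog, where the retroviral copy adds tags, reached a pileup of 236 in NanogN70+Oct4 Day1, 41 in NanogN70+Oct4 Day3 and 24 in NanogN70+Oct4 Day5, where the shared median pileups were 16, 60 and 23. In Nanog+Oct4 Day3 they reached 84, with a shared median of 23, and MEFs and ESCs had no such peak. The exon pileup was below the shared median in NanogN70+Oct4 Day3, above it in NanogN70+Oct4 Day1 and Nanog+Oct4 Day3 and close to it in NanogN70+Oct4 Day5, and from day 7 on it was below it in both paths. On the coding exons of Pou5f1, which encodes Oct4, the factor given to all time course cells, the pileup was 56 in NanogN70+Oct4 Day3, below the shared median of 60. In each of the other 15 time course libraries it was above the shared median, which MEFs without virus also showed (48, shared median 39). It was 365 in NanogN70+Oct4 Day1, 44 in NanogN70+Oct4 Day5 and 119 in Nanog+Oct4 Day3. Whether T lymphocyte DNA or a lower share of transduced cells had a part in the regions described here was not tested.

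The chosen regions around Tcf7 and Cd3e lay among peaks that other libraries shared. Within 60 kb of the Tcf7 start site NanogN70+Oct4 Day3 had 28 peaks, 11 of them in regions found nowhere else and 9 of these strong, and the other libraries had 4 to 20. Within 60 kb of the Cd3e start site it had 21, of which 11 were found nowhere else and 6 were strong, and the other libraries had 2 to 10. The peaks outside the chosen regions numbered 17 at Tcf7 and 10 at Cd3e. At Tcf7 only ESC replicate 1 had more peaks than 17, with 20. At Cd3e only ESC replicate 1 had as many as 10, and all other libraries had fewer.

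**Figure D5:**
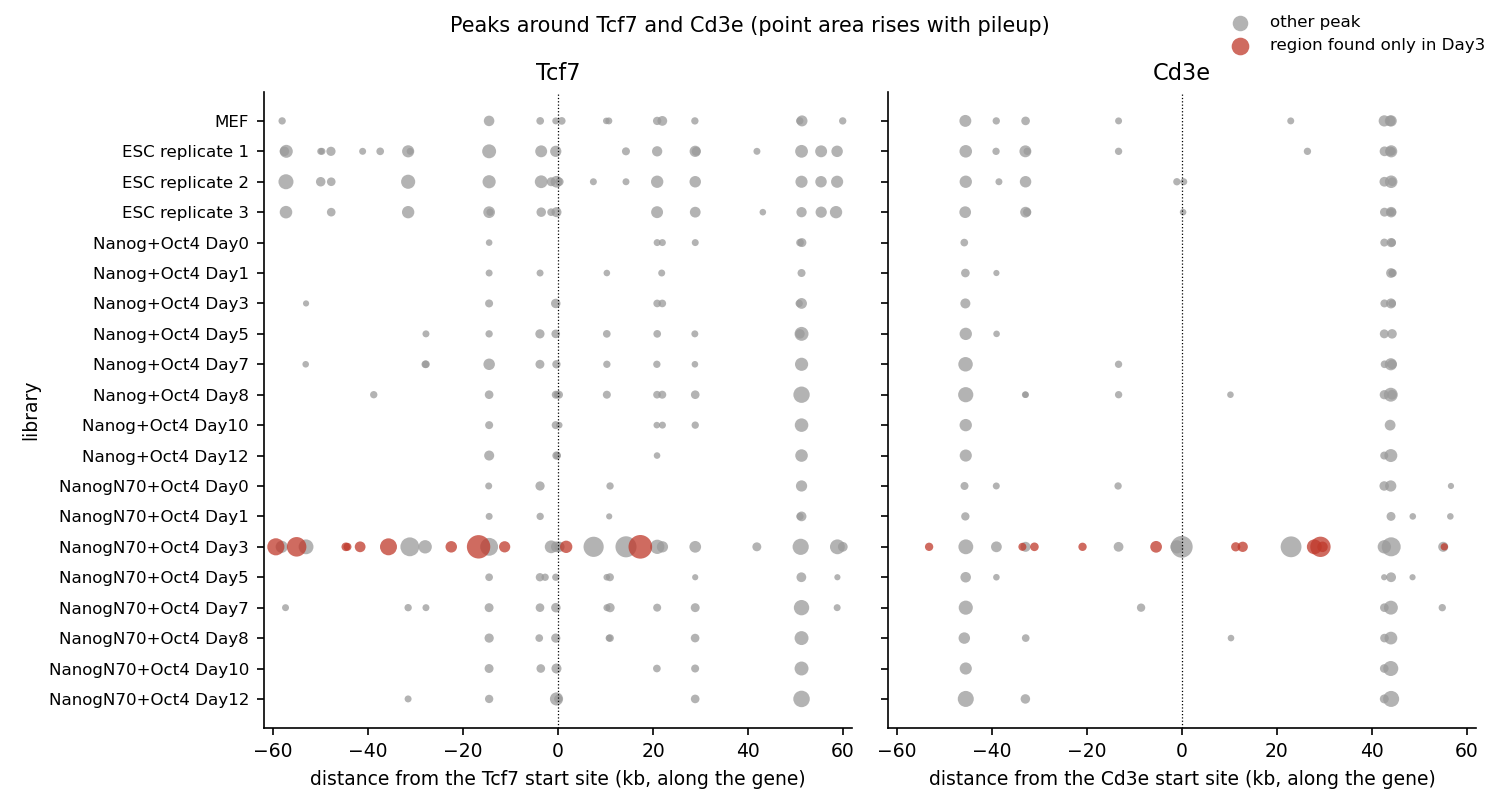
Peaks within 60 kb of the Tcf7 and Cd3e start sites by library (y axis), placed by distance from the start site along the gene in kb (x axis), with point area rising with pileup. Red points, regions found only in NanogN70+Oct4 Day3, number 11 in each panel and lie among grey points that recur across libraries.

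The 12 strong regions with the highest pileups, chosen by that value, did not all lie at T cell genes. They were nearest to the start sites of Mxd4 (128, in an intron of Zfyve28), Sirt2 (127), Rad51b (123), Grap (122), Kdm2b (120), Bach2 (119), Il2rb (119), Slc12a3 (117), Gfod1 (114), Mob3a (113), Smndc1 (113) and Traf2 (111). Grap, an adaptor of T cell signalling, had its region 66 bp upstream of the start site, Il2rb, a subunit of the interleukin 2 and 15 receptors, 137 bp downstream in a UTR, and Bach2 89.5 kb upstream. Traf2 is an adaptor of tumor necrosis factor receptors and its region lay 2.69 kb upstream, while Slc12a3, a kidney salt transporter gene, held one in an intron 9.14 kb from its start site. The nearest start site need not be that of the gene a region acts on.

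Strong regions gathered at some genes. In the gene body and 10 kb around it, 332 protein-coding genes had 5 or more and 55 had 10 or more. The highest numbers after Gm20388 (54) and Fgfr2 (26), whose annotated models span 4455 and 2981 kb with the windows and overlap many other genes, were at Bach2 (25), Ubac2 (22), Prkch (21), Foxp1 (19), Clec16a (17), Rora, Prex1 and Grap2 (16 each), and Ppp1r16b, Gm20696, Fyn and Inpp4b (15 each). Ablim1, Ikzf1 and Runx1 were among the genes with 14. Prkch encodes protein kinase C eta, Prex1 a Rac exchange factor of leukocytes, and Ppp1r16b a phosphatase regulator. Gm20696 overlaps Foxp1 and counts many of the same regions. Per 100 kb of window the order changed, with 16.0 at Grap2, 13.5 at Ubac2 and 12.4 at Ppp1r16b against 2.12 at Rora and 1.86 at Inpp4b. Another strong or weak region lay within 10 kb of 67.4% of strong regions and of 52.6% of weak regions.

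Counted by the nearest start site, the 9138 strong regions were spread over 3847 genes, 2028 of which had exactly 1, and 451 had 5 or more. The highest counts were at Bach2 (31), Ets1 (29), 3110018I06Rik (25), Prkch (22), Satb1 (22), Prex1 (20), Cd47 (20), Prkcq (19), Runx1 (19), Foxp1 (19), Myc (19) and Bcl11b (18). Of the 25 genes with the most, 12 were in one of the lists, which were written with earlier results of these data known. The share of listed genes among all 3847 was not computed, so this count has no base to be read against. Many of the regions counted this way were far from the start site, with median distances of 282 kb at Gata3, the factor of helper T cells, 278 kb at Myc and 328 kb at 3110018I06Rik. In the 1 Mb centred on the start site, 43 strong regions lay at Ets1, 39 at 3110018I06Rik, 31 at Bach2, 31 at Prkcq, 30 at Prkch, 28 at Lef1, 26 at Rap1b and 25 at Bcl11b, the highest 8 of these 25 genes, where the mean over the chromosomes was 3.35 per Mb. These genes were picked by their counts, so the figures describe them and support nothing further.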

How the data were processed

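ATAC-seq was analysed in 20 libraries. Per the labels and the study's methods, the authors trimmed reads with Trim Galore 0.6.4, aligned them with Bowtie2 2.4.5 to mm10, used SAMtools 1.16.1 to remove repetitive reads, reads of mapping quality under 30 and mitochondrial reads, and called peaks in each library separately with MACS 1.4.2, keeping duplicates, without a model and with a shift size of 25 bp. No input control is named. The deposited peaks carry a score, the negative base-10 logarithm of the MACS p-value times 10, which was 50 or more in all files. The deposited summits carry a coverage signal, the pileup in tags, which is not scaled to depth. Depth is unknown because no read totals were at hand, and duplicates that were kept add to the pileup.

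Here, peaks overlapping by 1 bp or more were merged (Python 3.11.15, pandas 2.3.3, NumPy 2.4.6). A region's pileup is that of its highest summit in the NanogN70+Oct4 Day3 library. Places and genes are from GENCODE M21 and sequences from GRCm38 (mm10 in UCSC naming). The last region lay inside the reference length on all 21 chromosomes, and 14 other sequence names, with 4 weak regions, were not annotated. Promoters reach 1 kb on either side of the start sites of protein-coding transcripts. GC content covers 100 bp on either side of the summit. Genes are compared by gene body and 10 kb around it, and 1 of the 12 erythroid genes, Ahsp, was not matched. Shares have exact Clopper-Pearson intervals (SciPy 1.17.1) at the 95% level, which cover counting error only. No p-value is given, since regions of 1 library do not replicate each other. The procedure was checked on simulated peaks. The regions, lists and rules were chosen with earlier results of these data known. Named were the 12 regions of highest pileup, the 15 genes with the most strong regions, genes of the 21 lists, antigen receptor loci, sequence windows at T lymphocyte and leukocyte genes in order of pileup (6 that touched a UTR were passed over), and regions of pileups 11 and 12, none on chromosome 18. Some genes of the lists are counted but not reported by name here. The genes counted by nearest start site, their 1 Mb windows, the relative pileups, the promoters open in 1 library alone, the peaks shared with other libraries and the coding exon pileups were added after seeing the data. Alternatives changed the merging, overlap, score, pileup threshold, windows and ESC libraries used.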

Additional observations from a re-analysis of the deposited data

How the results depend on the processing

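The number of regions found only in NanogN70+Oct4 Day3 was 17866. It moved by more than 1.5 times when peaks within 500 bp were merged (11176) and when NanogN70+Oct4 Day3 peaks needed a score of 100 (9481). It was 12359 with that score in every library, 14012 with the 69575 top-scoring peaks of the library, 22844 when another library's peak had to cover 0.5 of the peak, and 18051 to 18345 without 1 ESC library. The share with a pileup of 12 or more (51.1%) was 53.1% after the 500 bp merge and 78.9% with the score of 100. It was 62.7% at a threshold of 10, 38.8% at 15 and, in an alternative added after seeing the data, 13.6% at 30. The promoter share (11.5%) was 12.3% at a threshold of 15, 17.9% with a 2 kb window and 15.6% with the start sites of all genes. The share with ETS or RUNX words (31.1%) was 32.4% at a threshold of 15 and 68.5% within 100 bp of the summit, since a longer window holds more words. The number of T lymphocyte genes with a strong region (22 of 24) was between 18 with no window around the gene and 24 with 50 kb, and 21 (added after seeing the data) with strong regions that reached the 5th percentile in all other libraries. The share within reach of the other libraries fell from 75.9% to 55.4% with the 5th percentile, also added later. Leaving out ESC replicates changed no value beyond its interval or 1.5 times. Depth is unknown and NanogN70+Oct4 Day3 has no replicate, so the spread of these values between samples is not known. No paired analysis was possible because the result comes from no test and only the ESC libraries have replicate numbers.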

Other observations

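The antigen receptor loci, which are rearranged in lymphocytes, held regions found only in NanogN70+Oct4 Day3 to different extents. The combined T cell receptor alpha and delta locus (chr14:52417928-54234206, mm10) held 12 strong and 26 weak regions with a highest pileup of 40, and 59 peaks in all against 3 to 33 in the other libraries. The beta locus (chr6:40881229-41568452) held 8 strong and 12 weak regions (highest 39) and 34 peaks against 1 to 22, and the gamma locus (chr13:19168024-19362756) held 1 strong and 3 weak regions. The immunoglobulin heavy chain locus (chr12:113244830-116020093) held 4 strong and 9 weak regions and 14 peaks against 0 to 20, the kappa locus held 0 strong and 1 weak region and 16 peaks against 1 to 59, and the lambda locus held no peak in NanogN70+Oct4 Day3. Per Mb the strong regions were 11.6 in the beta, 6.61 in the alpha and delta, 5.14 in the gamma and 1.44 in the heavy chain locus, beside 3.35 over the chromosomes. Rearrangement itself cannot be seen in peak lists.

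The X chromosome held fewer strong regions per Mb (0.509) than any autosome (2.32 to 6.004), and 0.952% of strong regions against 2.13% of weak regions and 1.91% of the other regions of the library. Over strong and weak regions together the X share was 1.53%, inside the 0.495 to 3.49% of the regions found only in each of the other 19 libraries.

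Genes with the densest strong regions per 100 kb among those with at least 5, picked by this value after seeing the data, were Gimap9 (30.5), Gimap4 (29.1), Gm17490 (29.0), Neurl3 (26.6), Cd2 (24.97), Gpr18 (24.5), Selplg (23.5) and Tnf (22.1). The Gimap genes encode GTPases of lymphocytes and lie next to each other, so their windows share regions. Selplg encodes the P-selectin ligand of leukocytes.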
